A study of Mus musculus with 2 samples.

Results

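Decapping and RNA exosome transcripts were followed in mature mouse oocytes of 2 ages through 10 genes, each matched by its Ensembl gene ID to 1 of the 36227 rows of the deposited table. They encode the decapping enzyme and its activators (Dcp1a, Dcp2, Edc3, Edc4), the exonuclease that follows decapping (Xrn1), a poly(A)-specific nuclease (Parn), and 4 subunits of the exosome (Dis3, Exosc1, Exosc2, Exosc3). The aged library was made from oocytes of ICR females of 12 months and the young library from oocytes of ICR females of 3 months. Each library pooled 18 naturally ovulated oocytes at metaphase of the second meiotic division, 3 from each of 6 females, and no other treatment or genotype is labelled. Since each age has 1 library, the variation among animals is unknown, no test of age was possible, and every difference below describes these 2 pools. In a pooled library, fewer oocytes that carry a transcript and less of it in each oocyte cannot be told apart.

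A messenger RNA is protected by a cap at its 5′ end and a poly(A) tail at its 3′ end. After the tail is shortened, the catalytic subunit DCP2 removes the cap with the help of DCP1, EDC3 and the scaffold EDC4, and XRN1 degrades the body from the 5′ end. The exosome degrades RNA from the 3′ end. Its barrel is a ring of RNase PH-like subunits topped by a cap of EXOSC1, EXOSC2 and EXOSC3, and its nuclease activity comes from attached subunits such as DIS3. The growing mouse oocyte stores stable messengers and clears many of them during meiotic maturation, and Dcp1a and Dcp2 are known as stored transcripts whose translation is switched on at that time.

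The libraries were primed from poly(A) tails, whose length was not measured, so reverse transcription began just past the 3′ ends of the transcripts. The sequences there are shown for some of the genes. Each line gives 30 bases of the 3′ UTR in the last exon, 5′ to 3′ on the transcript strand, ending with the last AATAAA or ATTAAA cleavage signal within 50 bases of the annotated transcript end (GENCODE mouse release 21, GRCm38). Capitals mark the signal and any cytoplasmic polyadenylation element, searched as TTTTAT or TTTTAAT on that strand only.
Dcp1a: atatgtttgcaaatatatttTTTTAATAAA
Exosc3: agaaaattataaaaacTTTTATatAATAAA
Edc4: agaaatgcaattaaaggcttttggAATAAA
Parn: aaaaagtaatttcaaaaagctgaaATTAAA
Xrn1: tgtgtcaaatgcgctatgattttgATTAAA

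The Dcp1a stretch is chr14:30527001-30527030 on the plus strand, and there TTTTAAT overlaps the cleavage signal itself. The Exosc3 stretch is chr4:45316629-45316658 on the minus strand, with TTTTAT just before the signal. The stretches of Edc4 (chr8:105893174-105893203, plus strand), Parn (chr16:13537975-13538004, minus strand) and Xrn1 (chr9:96057750-96057779, plus strand) hold neither element. Of the 10 genes, 8 had a signal in that place. Of 9087 genes with at least 20 counts on average and a 3′ end of at least 50 bases, 81.2% had one. Dcp1a and Exosc3, 2 of those 8 members, held an element in the window. Exosc2, lower in the aged library like Dcp1a and Exosc3, had a signal but no element, and its stretch is not shown. Among 7380 genes with such a window and at least 20 counts on average, 8.41% held an element, with a median log2 ratio of aged over young of 0.32, against 0.47 for those without. A match is a description of letters, not a shown site.

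The aged library held 18597656 counts, the young library 19475110. Levels are given as CPM, the usual scaling of counts by the library total, and ratios as log2 of aged over young. The 10211 genes whose counts averaged 20 or more across the libraries are called above the floor. Intervals are 95% exact (Clopper-Pearson) intervals and cover counting error only, since the amplified reads carry no molecular identifiers. The median log2 ratio of these genes was 0.43, so each ratio is also given relative to that median gene. All 12 oocyte markers were above the floor, with a summed level of 102958 CPM in the aged and 181991 CPM in the young library. Gdf9 made up a large part of it, with 42795 CPM in the aged library, against 97099 CPM in the young one. By 2-fold or more, 2 of these markers were higher in the aged library, Nlrp5 and Dppa3, and 4 were lower. Of all genes above the floor, 27.9% were higher and 10.6% lower. Relative to the median gene 0 of these markers were higher and 5 lower, where 16.0% and 17.3% of all genes were. Of 12 cumulus and granulosa markers, 5 had no counts and 6 lay below the floor, among them Ptx3 with 1 count in each. Has2 and Tnfaip6 had 2 and 1 counts in the aged library, against 0 and 2 in the young one. Ptgs2 had 0 counts in the aged library, against 1 in the young one. Fshr had 16 counts in the aged library, against 0 in the young one, and Inha had 0 in the aged library, against 14 in the young one. Their summed level was 57.9 CPM in the aged and 23.3 CPM in the young library, nearly all of it Cyp19a1 with 1056 counts in the aged and 436 in the young library. Of 8 blood and immune markers, 7 had no counts and Ptprc had 0 in the aged and 1 in the young library. The part of other cells in the results was not tested.

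Of the 10 genes, 9 were above the floor, with 1 gene higher and 2 genes lower in the aged library by 2-fold or more. Among all 10211 genes above the floor, 27.9% were higher and 10.6% lower by this measure. The higher gene was Xrn1, and the lower genes were Dcp1a and Exosc2. Relative to the median gene none was 2-fold higher and 3 were 2-fold lower, Dcp1a, Exosc2 and Exosc3, where 16.0% and 17.3% of all genes lay beyond these limits. Dcp1a was the 1 member whose whole counting interval lay beyond 2-fold, as did that of 18.0% of all genes on the higher and 6.35% on the lower side. The median log2 ratio of the 9 genes was -0.02, against 0.43 for all genes above the floor. Just short of 2-fold, Parn had a log2 ratio of 0.94.

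**Figure D1:**
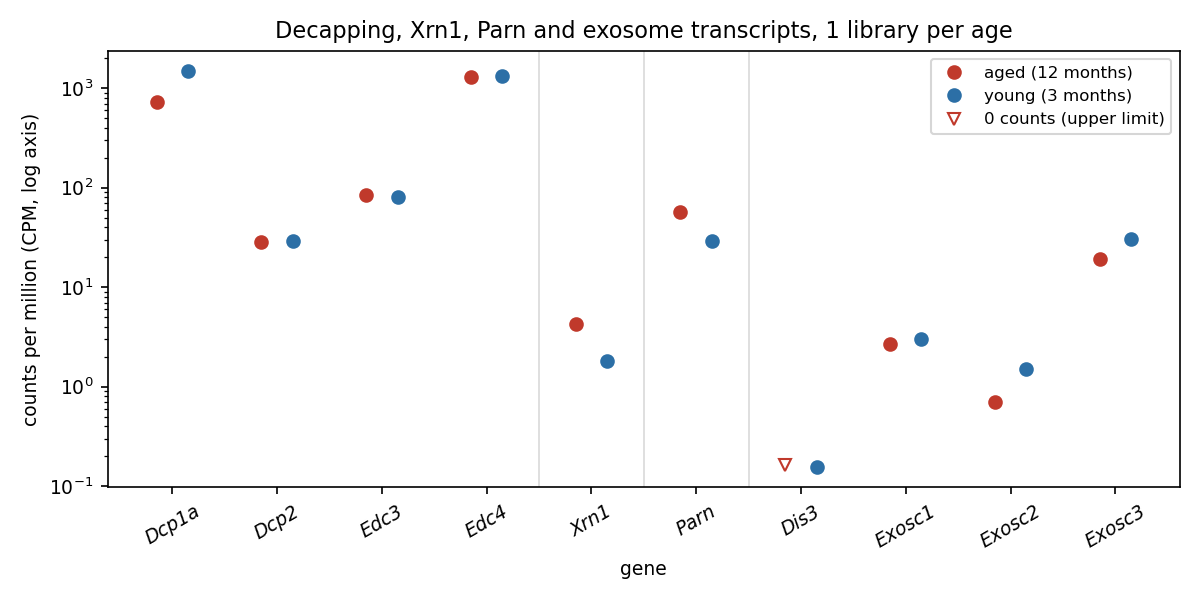
Level of each of the 10 genes in CPM (log axis), with the aged library left of the young one for every gene; the open triangle marks 0 counts at the upper limit this allows. Dcp1a, Exosc2 and Exosc3 lie lower in the aged library, Xrn1 and Parn lie higher, and Dcp2, Edc3 and Edc4 lie at nearly the same level in both.

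Among the decapping genes, Dcp1a differed from its partners in these libraries. Dcp1a, whose product activates the decapping enzyme, had 13568 counts (730 CPM) in the aged library, against 29348 counts (1507 CPM) in the young one. Its level in the aged library was lower by 2.07-fold (interval 2.02 to 2.11), a log2 ratio of -1.05, or -1.47 relative to the median gene. The catalytic subunit gene Dcp2 had 535 counts (28.8 CPM) in the aged library, against 561 counts (28.8 CPM) in the young one. Its log2 ratio of -0.00 had an interval of -0.18 to 0.17.

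Edc4, the scaffold that joins DCP1 and DCP2, had 24334 counts (1308 CPM) in the aged and 25815 counts (1326 CPM) in the young library. At this depth the interval of its log2 ratio, -0.04 to 0.01, was narrow and included equality. Edc3, an enhancer of decapping, had 1557 counts (83.7 CPM) in the aged and 1585 counts (81.4 CPM) in the young library. Its log2 ratio was 0.04 (-0.06 to 0.14) by library totals and turned to -0.38 relative to the median gene. Dcp2 and Edc4 lay at -0.43 and -0.44 relative to the median gene. By library totals the 3 partners of Dcp1a thus shared nearly the same ratio, between -0.02 and 0.04, although their levels ranged widely. With the median of genes of like length and GC content taken off, they differed. The log2 ratios were then -0.94 for Dcp2, -0.16 for Edc3 and -0.00 for Edc4, beside -1.54 for Dcp1a.

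Within a library, Dcp1a had 25.4 counts for each count of Dcp2 in the aged pool and 52.3 in the young pool, 2.06 times fewer in the aged pool (interval 1.83 to 2.33). Against Edc4 the ratio was 0.558 in the aged and 1.14 in the young library. These ratios within a library do not depend on the scaling. The 4 decapping genes together held 2150 CPM in the aged and 2943 CPM in the young library, and most of that difference lay in Dcp1a.

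Xrn1, the main cytoplasmic exonuclease acting from the 5′ end, was scarce in both libraries. It had 79 counts (4.25 CPM) in the aged library, against 35 counts (1.80 CPM) in the young one. The level was 2.36-fold higher in the aged library, with an interval of 1.57 to 3.63 that reaches below 2-fold. Relative to the median gene its log2 ratio of 1.24 became 0.82, and it was 0.30 once the median of genes of like length and GC content was taken off. The transcript is long (10256 bases) and low in GC (41.9%). Its exons overlap those of 2 antisense genes, C78334 and Gm16794. Exons of other members also overlap another gene, those of Edc3 Clk3, Edc4 Nrn1l, Exosc2 Gm13427, Exosc3 Dcaf10 and Dis3 Pibf1.

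Parn, which trims poly(A) tails and also matures small RNAs, had 1051 counts (56.5 CPM) in the aged library, against 572 counts (29.4 CPM) in the young one. It was 1.92-fold higher in the aged library, with an interval of 1.74 to 2.13. The log2 ratio of 0.94 was 0.52 relative to the median gene. Like that of Xrn1 it was above 0 under each of the scalings tried, and 70.2% of genes had a lower ratio.

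The 3 genes of the exosome cap were all at lower values in the aged library, to different degrees. Exosc3, an RNA-binding cap subunit, had 359 counts (19.3 CPM) in the aged library, against 599 counts (30.8 CPM) in the young one. It was 1.59-fold lower in the aged library (interval 1.40 to 1.82), and its log2 ratio was -0.67, or -1.10 relative to the median gene. Exosc2, another cap subunit, had 13 counts (0.699 CPM) in the aged library, against 29 counts (1.49 CPM) in the young one. Its 2.13-fold lower level carried an interval of 1.07 to 4.46, which nearly reaches equality and covers counting error only. Exosc1, the remaining cap subunit, had 50 counts (2.69 CPM) in the aged library, against 58 counts (2.98 CPM) in the young one. Its log2 ratio of -0.15 had an interval of -0.72 to 0.42, and no difference was detectable at this depth.

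Dis3, the nuclease of the nuclear exosome, was nearly undetected. It had 0 counts in the aged and 3 counts in the young library. Taken as up to 3 counts, a count of 0 allows up to 0.161 CPM in the aged library, and 3 counts are 0.154 CPM in the young one, so no fold is given.

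Compared per length, the 10 genes spanned a wide range. Division by length assumes reads along the whole transcript, which was not tested in these libraries primed from poly(A) tails. In CPM per kilobase of the longest coding transcript, with exact Poisson intervals of the counts, Edc4 was the highest in both libraries, with 274 in the aged and 277 in the young one. Dcp1a followed with 131 in the aged and 270 in the young library. The order then ran Parn (19.4), Exosc3 (17.9) and Edc3 (14.7) in the aged library, where the counting intervals of Parn and Exosc3 overlapped. In the young library it ran Exosc3 (28.6), Edc3 (14.3) and Parn (10.1). Parn thus stood above Edc3 in the aged library and below both Exosc3 and Edc3 in the young one. Its order against Exosc3 in the aged library is not settled by the counts. Without division by length, Parn had fewer counts than Edc3 in both libraries. Dcp2, with 3.34 in both libraries, and Exosc1, with 1.17 in the aged and 1.30 in the young library, came next. At the low end, Exosc2 and Xrn1 both had 0.41 in the aged library with overlapping intervals, and 0.883 and 0.175 in the young one. Edc4 and Dcp1a, at 274 and 131 in the aged library, lay above 97.4% and 94.6% of genes above the floor in level per kilobase, and Xrn1 lay above 7.41%.

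**Figure D2:**
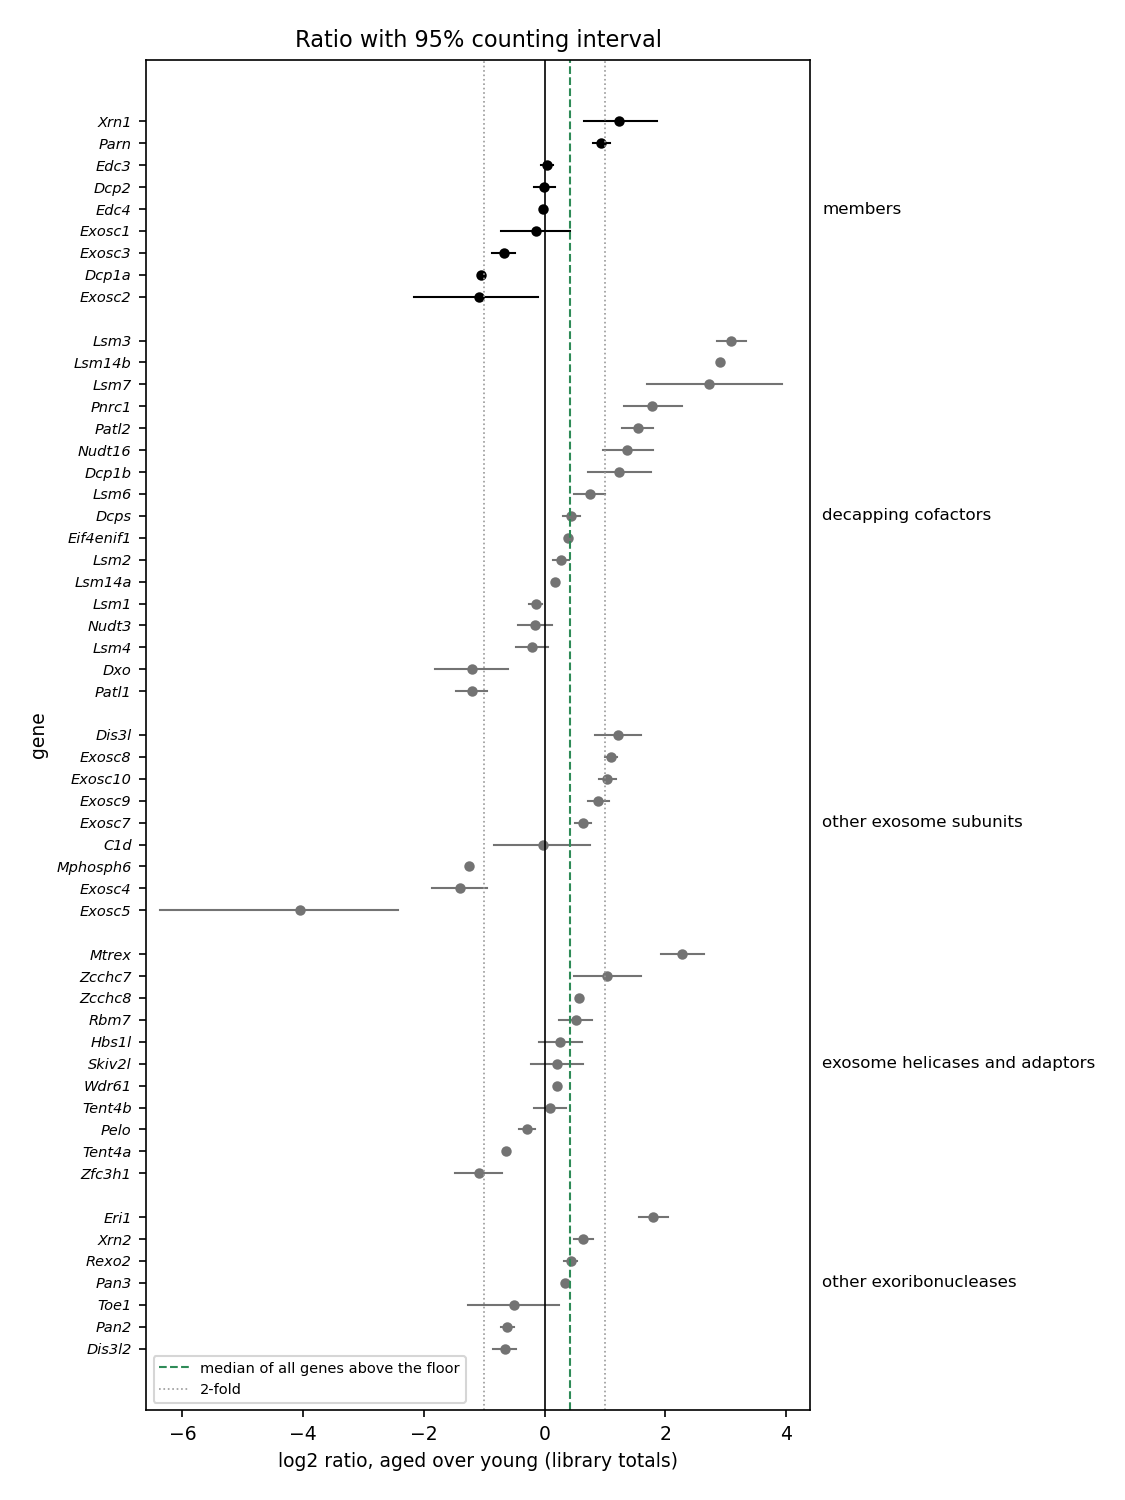
Log2 ratio of aged over young (points) with its 95% counting interval (lines) for the 9 members and 44 other pathway genes above the floor, grouped by list; dotted lines mark 2-fold and the dashed line marks the median of all genes at 0.43. Most members lie left of the dashed line, Exosc5 lies farthest to the left, and Lsm3, Lsm14b and Lsm7 lie farthest to the right.

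A wider set of 50 genes of the same pathways, listed by function, gave 44 genes above the floor. In the aged library 13 of these were higher and 6 lower by 2-fold or more, and their median log2 ratio was 0.36. Over all genes above the floor the shares were 27.9% and 10.6%, near those of this set. Relative to the median gene, 7 were higher and 9 lower, where 16.0% and 17.3% of all genes were, and the median was -0.06. Lsm5 and Exosc6 were not matched to a row, Pnldc1 had no counts, and Ddx6, Pnrc2 and Ttc37 lay below the floor. Ddx6, a helicase of decay and storage granules, had 17 counts in the aged and 6 in the young library.

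In the aged library 7 of 17 decapping cofactors were higher and 2 lower by 2-fold or more. After centring on the median gene the counts were 5 and 2. Among all genes above the floor 27.9% were higher and 10.6% lower, or 16.0% and 17.3% after centring. Lsm3 and Lsm7 encode subunits of the LSm rings, one of which binds shortened tails and recruits the decapping enzyme. Lsm3 had 1403 counts in the aged and 172 in the young library, 8.54-fold higher in the aged one. Its exons overlap those of AC161456.1. Lsm7 had 57 counts in the aged and 9 in the young library, 6.63-fold higher with an interval of 3.26 to 15.2. The other ring genes did not share this size, with log2 ratios of -0.14 for Lsm1, 0.28 for Lsm2, -0.20 for Lsm4 and 0.75 for Lsm6, and relative to the median gene Lsm2 turned to -0.15. Lsm14b, which encodes an RNA-binding protein of oocyte storage particles, had 162169 counts (8720 CPM) in the aged library, against 22676 counts (1164 CPM) in the young one. It was 7.49-fold higher in the aged library and by far the most abundant gene of the set there.

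Dcp1 and Pat1 paralogues differed in direction, a comparison chosen after the values were seen. Dcp1b, the paralogue of Dcp1a, had 103 counts (5.54 CPM) in the aged library, against 46 counts (2.36 CPM) in the young one, 2.34-fold higher with an interval of 1.64 to 3.40. For each count of Dcp1b the aged library thus held 132 counts of Dcp1a and the young library 638, a ratio 4.84 times smaller in the aged library (interval 3.39 to 7.02). Per kilobase, Dcp1a remained the major form, at 78.3 times the level of Dcp1b in the aged and 379 times in the young library. Patl1 and Patl2 are related to the yeast decapping activator Pat1, and Patl2 is the form known from oocytes. Patl2 had 482 counts in the aged and 173 in the young library, while Patl1 had 186 in the aged and 449 in the young library. Per kilobase Patl2 stood at 4.49 times Patl1 in the aged library and 0.667 times in the young one, so the order of the pair was opposite. Lsm14a, with 14203 counts in the aged and 13117 in the young library, had a log2 ratio of 0.18 beside 2.90 for Lsm14b, and relative to the median gene it turned to -0.24.

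**Figure D3:**
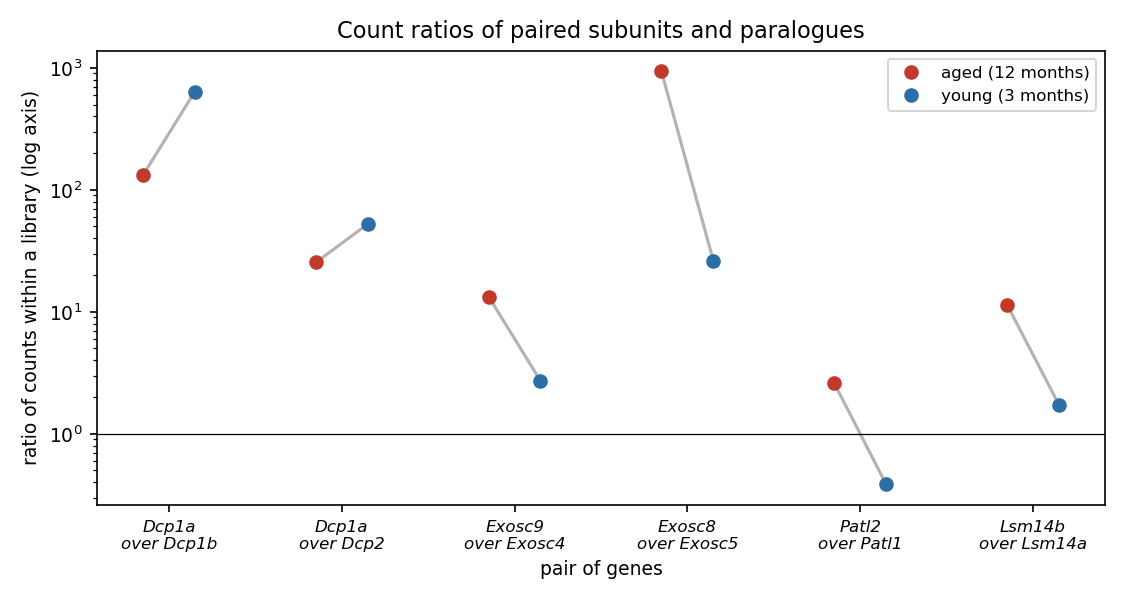
Ratio of counts of the first to the second gene of each pair within a library (log axis), aged left of young, with a line joining the 2 libraries. The Dcp1a ratios are smaller in the aged library, and the other 4 ratios are larger there, with Patl2 over Patl1 at 2.59 in the aged and 0.385 in the young library.

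Of 9 other exosome subunit genes above the floor, 3 were higher and 3 lower in the aged library by 2-fold or more. After centring on the median gene the counts were 0 and 3. The shares of all genes above the floor were 27.9% and 10.6%, or 16.0% and 17.3% after centring. Exosc5, a ring subunit, had 3 counts in the aged library, against 52 counts in the young one, 16.6-fold lower with an interval of 5.36 to 82.9. Exosc4, also of the ring, had 57 counts in the aged and 158 in the young library, 2.65-fold lower. Mphosph6, a nuclear exosome cofactor, was the most abundant, with 14637 counts (787 CPM) in the aged and 36513 counts (1875 CPM) in the young library, 2.38-fold lower. The other ring genes lay on the other side of equality, with log2 ratios of 0.64 for Exosc7, 1.10 for Exosc8 and 0.89 for Exosc9, all above the median gene.

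In the human exosome the ring is built of heterodimers, of which EXOSC4 with EXOSC9 and EXOSC5 with EXOSC8 have both genes measured here. In both pairs 1 gene was lower and the other higher in the aged library, a comparison chosen after the values were seen. Exosc9 had 13.3 counts for each count of Exosc4 in the aged library, against 2.72 in the young one, a 4.89-fold larger ratio (interval 3.51 to 6.90). Exosc8 had 934 counts for each count of Exosc5 in the aged library, against 26.3 in the young one, a 35.6-fold larger ratio with an interval of 11.5 to 178 set by the 3 counts. The lower genes had higher GC contents (54.9% for Exosc4 and 55.1% for Exosc5) than the higher ones (44.5% for Exosc9 and 52.2% for Exosc8). With length and GC content taken off, the log2 ratios were -1.59 for Exosc4 and -4.24 for Exosc5, against 0.08 for Exosc9 and 0.95 for Exosc8. The exons of all 4 overlap a gene of the other strand (Oplah, Tmem91, Ccna2 and Supt20), and no source used here says whether counting used strand.

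The nuclease subunits other than Dis3 were higher. Exosc10, a nuclear exonuclease, had 1308 counts in the aged and 665 in the young library, 2.06-fold higher in the aged one. Dis3l, the cytoplasmic counterpart of Dis3, had 193 counts in the aged and 87 in the young library, 2.32-fold higher. Relative to the median gene their log2 ratios were 0.62 and 0.79.

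Of 11 exosome helicase and adaptor genes above the floor, 2 were higher and 1 lower by 2-fold or more. After centring the counts were 1 and 2. For this and the next list, the shares of all genes were 27.9% and 10.6%, or 16.0% and 17.3% after centring. The exons of Mtrex, the helicase that feeds the nuclear exosome, overlap those of Plpp1. Mtrex had 370 counts in the aged and 80 in the young library, 4.84-fold higher in the aged one. Zcchc7, of its polyadenylating adaptor, had 84 counts in the aged and 43 in the young library, 2.05-fold higher with an interval of 1.40 to 3.03. With length and GC content taken off its log2 ratio was -0.02. Zfc3h1, of an adaptor for polyadenylated nuclear RNA, had 83 counts in the aged and 185 in the young library, 2.13-fold lower. Among 7 other exoribonuclease genes, Eri1, a trimmer of histone messenger and ribosomal RNA ends, was the 1 gene beyond 2-fold, with 609 counts in the aged and 183 in the young library, 3.48-fold higher. After centring 1 was higher and 2, Dis3l2 and Pan2, were lower by 2-fold or more. Xrn2, the nuclear relative of Xrn1, had a log2 ratio of 0.64, which turned to -0.30 with length and GC content taken off. Dis3l2, which degrades uridylated RNA, had -0.66.

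**Figure D4:**
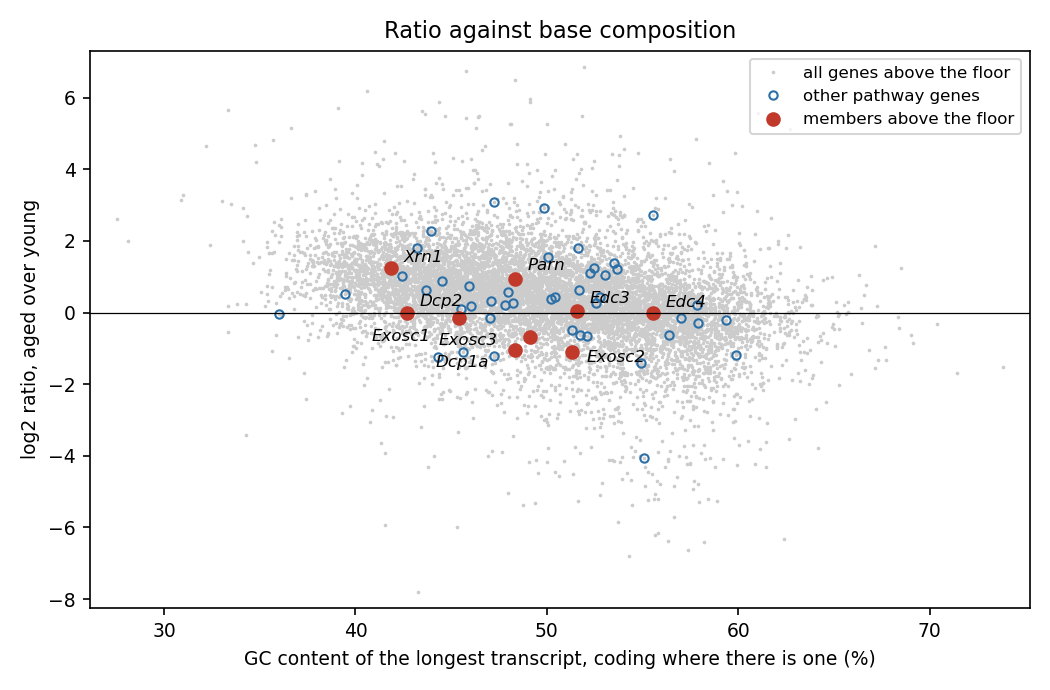
Log2 ratio of aged over young against the GC content of each gene's longest transcript (coding where there is one), in percent, for all genes above the floor with both values (grey), the other pathway genes (open circles) and the members (red). Over all genes the ratio falls with GC content, and Dcp1a, Exosc2 and Exosc3 lie at 48.3% to 51.3% GC, near the middle of the range.

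Base composition moved with the ratio over all genes, with Spearman's rho of -0.40 across 9902 genes of the same 2 libraries. The plot of ratio against GC content places Xrn1 (41.9%) and Dcp2 (42.7%) at the low end of the members and Edc4 (55.5%) at the high end. After the median of each bin of length and GC content was taken off, the log2 ratios were -1.54 for Dcp1a, -1.57 for Exosc2, -1.18 for Exosc3, -0.94 for Dcp2 and -0.86 for Exosc1. Those of Edc3 and Edc4 were -0.16 and -0.00, and Parn and Xrn1 stayed above 0 with 0.43 and 0.30. The 3 lowest members therefore had the same order of size with and without that correction, whereas Dcp2 and Edc4, nearly equal by library totals, differed with it.

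In the authors' deposited table, 2 members were marked as higher and 2 as lower in the aged library at p below 0.001. The share of all rows so marked was not counted here, so these numbers are not read as a result about the members. Those p-values rest on reads of 1 library per age and so say nothing of spread between animals.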

How the data were processed

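Per the labels' protocols, the oocytes of each age were lysed in a single tube, messenger RNA was reverse transcribed from an oligo(dT) primer, and the amplified cDNA was read by SOLiD sequencing. The build was mm9, per the submitters' processing notes, while aligner, counter, annotation release and handling of strand and shared reads are not given in the sources used. The authors deposited unnormalized counts per Ensembl gene. Their deposited log2 fold changes, z scores, p-values and q-values run young over aged and served here only for the number of members marked.

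Symbols, lengths, GC contents and 3′ ends came from GENCODE mouse release 21 (GRCm38), which named 93.7% of the counted rows. Ratios are aged over young after scaling to library totals, for genes averaging 20 counts or more. No edgeR or other test could be run with 1 library per age, and edgeR 4.0.16 and DESeq2 1.42.0 gave scaling factors only. The ratio and interval were tested on simulated Poisson counts. These hold no variation from amplification or among animals, so the test says nothing about either. Python 3.11.15 with numpy 2.4.6, scipy 1.17.1 and pandas 2.3.3 was used. Members and lists were chosen with earlier results of these data known. Besides the members, up to 3 genes of each pathway list with the largest ratio are named by rule; others were chosen after their values were seen. The result for a further gene is not reported here.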

Additional observations from a re-analysis of the deposited data

How the results depend on the processing

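Scaling moved all ratios by -0.37 (TMM), -0.36 (DESeq2 size factors), -0.43 (median gene) or -0.29 (totals without the 100 most abundant genes). Members at least 2-fold higher, 1 by library totals, were 0 under each of these, with a floor of 100 counts, with the length and GC correction and with the interval beyond 2-fold, and 2 at 1.5-fold. Members at least 2-fold lower, 2 by library totals, were 1 with a floor of 100 counts, with 5 counts added and with the interval beyond 2-fold, and 2 or 3 otherwise. The members' median log2 ratio, -0.02, was -0.39 with TMM, -0.37 with DESeq2 size factors, -0.44 relative to the median gene, -0.30 with totals without the 100 most abundant genes and -0.86 with the length and GC correction. The other pathway genes at least 2-fold higher were 13 by library totals, 7 with TMM and 8 with DESeq2 size factors. They were 7 relative to the median gene and 8 with totals without the 100 most abundant genes. With the length and GC correction they were 9, and with the interval beyond 2-fold 8. Those at least 2-fold lower, 6, were 8 with TMM, 7 with DESeq2 size factors and 9 relative to the median gene. They were 7 with the length and GC correction and 2 with the interval beyond 2-fold. Lower genes thus outnumbered higher ones with TMM and relative to the median gene, and under no other setting tried. Relative to the median gene, lower genes were also the more numerous among all genes above the floor, with 17.3% lower and 16.0% higher. With the interval beyond 2-fold, 18.0% of all genes were higher and 6.35% lower. Shares of all genes were counted only for library totals, the median gene and the interval beyond 2-fold. Counts under TMM and the other settings have no such comparison. The scalings act by the shifts given, the stricter floor by taking out genes of few counts, and the interval by taking out genes of few counts or of ratios close to 2-fold. Single members ranged from -1.54 to -1.05 for Dcp1a, -1.57 to -0.87 for Exosc2, -1.18 to -0.66 for Exosc3, 0.30 to 1.24 for Xrn1 and 0.43 to 0.94 for Parn. No paired analysis was possible because each age has 1 library. Depth limits Exosc1, Exosc2, Xrn1 and Dis3, with 79 counts or fewer in a library.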

Other observations

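Nonsense-mediated decay, which removes messengers with premature stop codons and hands them to the same nucleases, was added as a list of 11 genes after the files were opened. In the aged library 3 of 10 genes above the floor were higher and 1 lower by 2-fold or more, and 3 and 2 after centring on the median gene. The counts by library totals lie near the shares of all genes, 27.9% higher and 10.6% lower. After centring, the shares of all genes were 16.0% and 17.3%, beside 3 and 2 of the 10 genes. The median log2 ratio of the 10 genes was 0.31, against 0.43 for all genes. Upf1, the central helicase, was the most abundant, with 8452 counts (454 CPM) in the aged library, against 26903 counts (1381 CPM) in the young one, 3.04-fold lower (interval 2.97 to 3.12). Its partner Upf2 had 424 counts in the aged and 121 in the young library, 3.67-fold higher. Smg1, the kinase that acts on UPF1, had 430 counts in the aged and 59 in the young library, 7.63-fold higher. Upf3a had 42 counts in the aged and 13 in the young library, 3.38-fold higher. Smg5, which recruits decay enzymes to UPF1, had a log2 ratio of 0.10, or -0.32 relative to the median gene. With length and GC content taken off, Upf1 had a log2 ratio of -1.50, Smg1 of 2.07 and Upf2 of 0.95. The exons of Upf1 overlap those of Cers1 and Gdf1, and the handling of strand is not known.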
